A study of Mus musculus with 6 samples.

Results

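Solute carriers are membrane proteins that move amino acids, sugars, ions, nucleosides, vitamins and metabolites across the plasma membrane and the membranes of organelles. Their genes were taken as every row of the deposited UMI count table whose symbol starts with Slc and a digit and which held at least 100 UMIs over all cells. Of the 14098 genes in the table, 217 had such a symbol and 137 passed the minimum. A UMI, or unique molecular identifier, marks 1 captured RNA molecule. Just outside the minimum stood Slc9b2 with 97 UMIs, Slc27a4 with 98 and Slc27a1 with 99, and just inside it Slc25a23 and Slc52a3 with 105 each and Slc4a8 with 106. By substrate, 31 members were mitochondrial carriers, 19 carried metal ions, 18 belonged to the nucleotide sugar family, 17 carried amino acids or peptides, 16 inorganic ions, 15 other organic molecules, 9 sugars, 5 nucleosides and related bases, and 3 carboxylates such as lactate. Another 4 match the symbol but are not carriers: the scaffold gene Slc9a3r1, the adaptor gene Slc4a1ap, the neighbouring gene Slc7a6os and the antisense RNA gene Slc36a3os.

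The cells are splenic regulatory T (Treg) cells, the Foxp3-expressing CD4 T cells that restrain immune responses, sorted by EGFP from C57BL/6 mice of 18 to 21 weeks and profiled with droplet-based 3′ single-cell RNA sequencing. There were 3 cKO samples (Bach2fl/fl Foxp3EGFP-Cre-ERT2) and 3 WT samples (Bach2+/+ Foxp3EGFP-Cre-ERT2), all from mice given tamoxifen, and the series addressed the role of Bach2, a transcriptional repressor, in Treg cells. Both genotypes therefore carry the tamoxifen-inducible Cre, which is driven from Foxp3 and acts in Foxp3-expressing cells only. The cell columns end in a suffix from 1 to 6 that no label ties to a sample, so cKO and WT are not compared here and the 6 barcode sets are described without a genotype.

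The table held 10685 cells, 1641 to 1902 per barcode set, holding 3998172 to 4786590 UMIs in a set, and the median cell of a set had 2000 to 2229. Of these, 63 barcodes occurred in more than 1 set. By marker UMIs, 224 cells fell in a B cell gate, 45 in a myeloid gate and 4 in an erythroid gate, and the other 10412 cells, with 24464329 UMIs, are called Treg cells below. In these, Foxp3 lay at 19.7 to 22.8 CPM over the sets (CPM, a gene's UMIs in every 1000000 UMIs of the cells), Cd3e at 638 to 836 and Ikzf2 (Helios) at 869 to 1134. Bach2 lay at 18.9 to 37.3 CPM. A 3′ tag outside the deleted stretch, whose place the labels do not give, checks no deletion. Summed erythroid markers ranged from 2.82 to 267 CPM over the sets, myeloid markers from 5.76 to 27.1, B cell markers from 33.3 to 48.1, and CD8 and NK markers from 14.4 to 20.7. Cd8a was at 0 in at least 1 set and at most 0.729. Cells are not replicates of a genotype or state, so no p-value is given, and the 95% intervals cover counting error only.

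T cells that divide or take up effector functions raise their uptake of glutamine, leucine, glucose and nucleosides, and they export lactate. Several amino acid transporters are pairs of a shared heavy chain, 4F2hc (Slc3a2), and a light chain such as Slc7a5, Slc7a6 or Slc7a10. The mitochondrial family (Slc25) exchanges ATP, phosphate and metabolites across the inner membrane, and the Slc30 and Slc39 families move zinc in opposite directions.

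The 137 members held 87327 UMIs in Treg cells, or 3569.6 CPM. Mitochondrial carriers supplied 40.7% of these UMIs, at 1454 CPM. The ADP/ATP carrier Slc25a5 alone supplied 13.1%, Slc25a5 and the phosphate carrier Slc25a3 together 23.0%, and the top 10 members 49.2%. The groups below them were amino acids with 455 CPM, nucleotide sugars with 294, other organic molecules with 291, the 4 genes that are not carriers with 282, metal ions with 242, inorganic ions with 226, sugars with 212, nucleosides with 93.6 and carboxylates with 19.5. One UMI counts 1 RNA 3′ end, so levels were not divided by gene length, and genes may still differ in how well their 3′ ends are captured. Slc25a4 and Slc25a5 are close paralogs, and how tags shared by similar copies were assigned is not given in the sources used here.

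Among mitochondrial carriers, Slc25a5 (chromosome X, 36795651 to 36798807, GRCm38) had 448 CPM in its lowest set, a median of 467 and 486 in its highest. Slc25a3 had 332, 353 and 368, and Slc25a4, a second ADP/ATP carrier, had 144, 156 and 169. Slc25a11, which exchanges malate for 2-oxoglutarate, had 92.0, 99.4 and 111. These 4 leading carriers varied little: the highest set exceeded the lowest by 1.09 to 1.20 times.

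Slc1a5 led the amino acid group by counts. This carrier of glutamine and other neutral amino acids had 89.6, 98.4 and 108 CPM in its lowest, median and highest set, and the glutamine carriers Slc38a2 and Slc38a1 had medians of 52.3 and 37.6. The heavy chain Slc3a2 had 73.6, 93.7 and 118. Its light chains were counted far less: Slc7a5 had 12.2 CPM over all Treg cells, Slc7a10 had 11 and Slc7a6 had 8.54.

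In the remaining groups 1 or a few members led. Slc50a1, a sugar efflux protein, had 127 CPM in all Treg cells, while the glucose transporters Slc2a3 and Slc2a1 had 19.6 and 16.2 and Slc37a3, of the sugar phosphate family, 9.85. Choline carrier Slc44a2 had 73.2, the vesicular nucleotide carrier Slc17a9 41.8, the haem carrier Slc48a1 28.7 and the urea channel Slc14a1 27.8. The equilibrative nucleoside carrier Slc29a1 had 45.6, the concentrative carrier Slc28a2 26.0, Slc23a2, an ascorbate carrier placed by its family, 11.2 and the lysosomal Slc29a3 6.09.

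Slc39a7, which releases zinc from the secretory pathway, had 47.7 CPM, and the zinc transporters Slc30a7 and Slc30a9 had 18.8 and 18.0. The magnesium transporter Slc41a1 had 14.8. Slc4a7, a sodium bicarbonate cotransporter, had 36.3, the sodium proton exchanger Slc9a8 24.8 and the sulphate carrier Slc26a2 22.2. In the nucleotide sugar family, Slc35b3 and Slc35b2, which carry the sulphate donor PAPS, had 37.2 and 22.2, Slc35a4 35.8 and Slc35b1 31.1. Monocarboxylate carriers were low, with 8.87 for Slc16a6, 5.85 for Slc16a1 and 4.82 for the lactate exporter Slc16a3. Of the genes that are not carriers, Slc9a3r1, which encodes the scaffold NHERF1, reached 231, against 24.6 for Slc7a6os, 16.1 for Slc4a1ap and 10.2 for Slc36a3os.

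**Figure D1:**
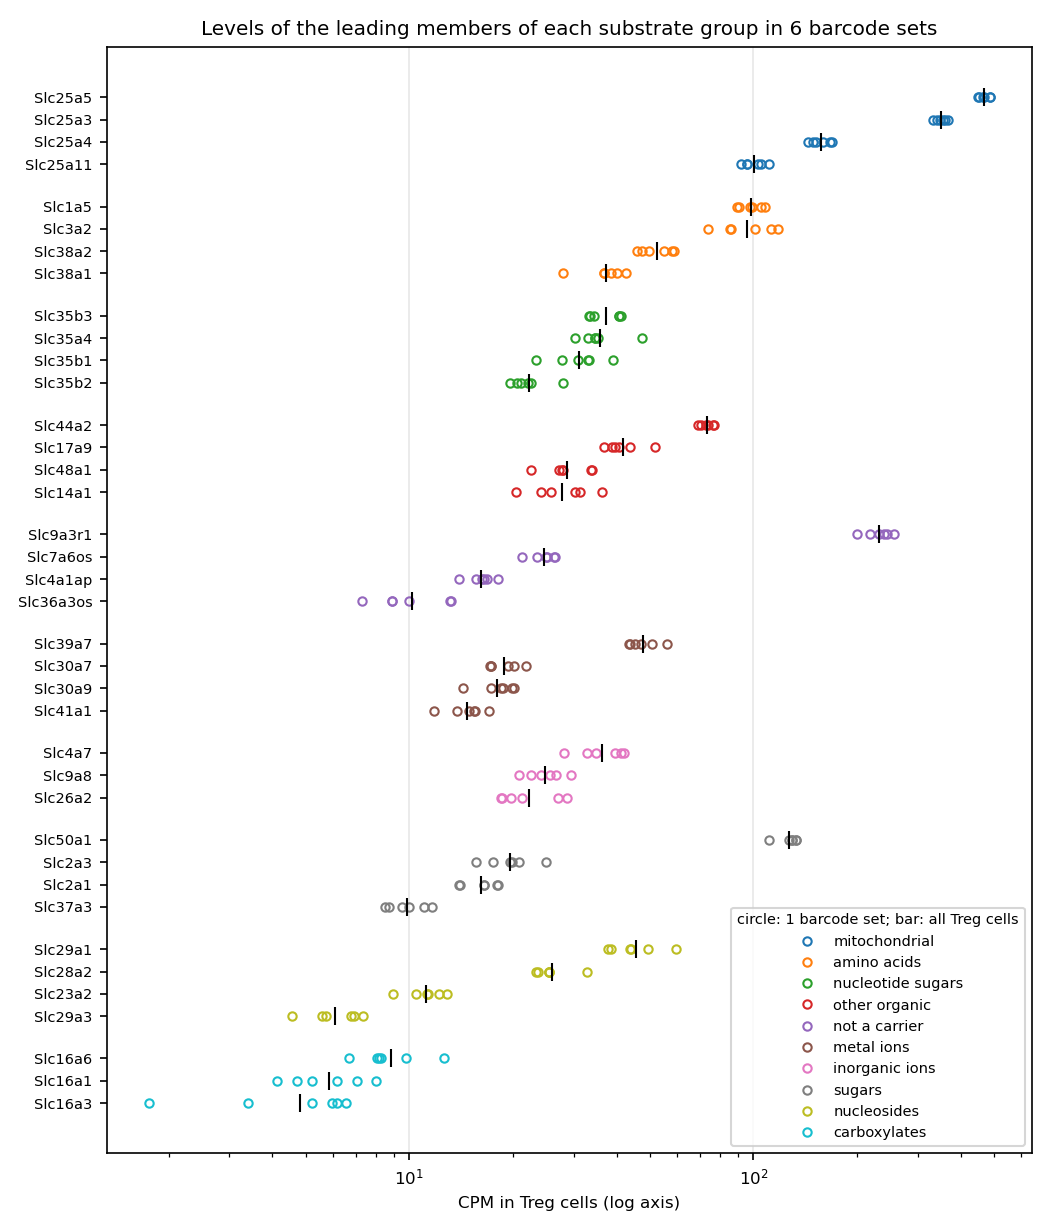
CPM in Treg cells (log axis) of 3 or 4 of the members with most UMIs in each substrate group; circles are the 6 barcode sets and bars all Treg cells together. Slc25a5 and Slc25a3 lie highest with circles close together, and Slc16a3 is the widest row, from 1.75 to 6.55.

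The summed level of all members lay between 3419 and 3699 CPM over the 6 sets. Single members differed more. For 40 of 137 members the 95% intervals of the highest and the lowest set did not overlap, which is 29.2%, beside 35.1% of all 9063 genes with at least 100 UMIs. The median ratio of highest to lowest set was 1.55 for members and 1.41 for all these genes. The members as a whole thus did not exceed the background in the share that stood apart.

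The widest ratios belonged to low members. Slc15a3, a lysosomal peptide and histidine carrier, had 3.69, 0.770, 1.70, 5.71, 7.60 and 3.75 CPM in sets 1 to 6, a ratio of 9.87, and 13.0% of its UMIs lay outside Treg cells. The riboflavin carrier Slc52a3 had 1.95, 2.57, 1.46, 7.94, 4.71 and 6.50, so that sets 4 to 6 were all above sets 1 to 3. Slc16a3 was lowest in set 6 with 1.75 and highest in set 5 with 6.55.

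Slc25a23, an ATP-Mg/phosphate carrier, ran from 1.94 in set 3 to 6.95 in set 4, and Slc4a8, a sodium-driven bicarbonate exchanger, from 2.19 in set 3 to 6.95 in set 4. The peptide carrier Slc15a2, singled out after its values were seen, was not counted in set 6, where 3 counts would be 0.750 CPM, and had 12 to 41 UMIs in each of the other 5 sets. Its highest level, 10.7 CPM in set 5, was at least 14.3-fold higher than that floor.

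Slc3a2, which is not among the 5 widest ratios, had 86.2, 73.6, 85.7, 118, 101 and 113 CPM in sets 1 to 6. All of sets 4 to 6 lay above sets 1 to 3. How many genes split this way, as Slc52a3 also did, was not counted, and no label ties the split to a genotype. The share of cells in the effector and resting gates described next also differed by set: 2.98% to 6.18% of gated cells were effector and 14.6% to 21.2% resting, and sets 4 to 6 held the 3 highest effector and the 3 lowest resting shares. Within resting-gated cells alone, Slc3a2 had 61.5, 60.2, 82.1, 91.0, 77.8 and 94.1 in sets 1 to 6, with set 3 above set 5. Within effector-gated cells it had 131, 121, 93.8, 120, 115 and 108, with sets 1 and 2 highest. The part of cell state in the differences between sets was not tested.

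**Figure D2:**
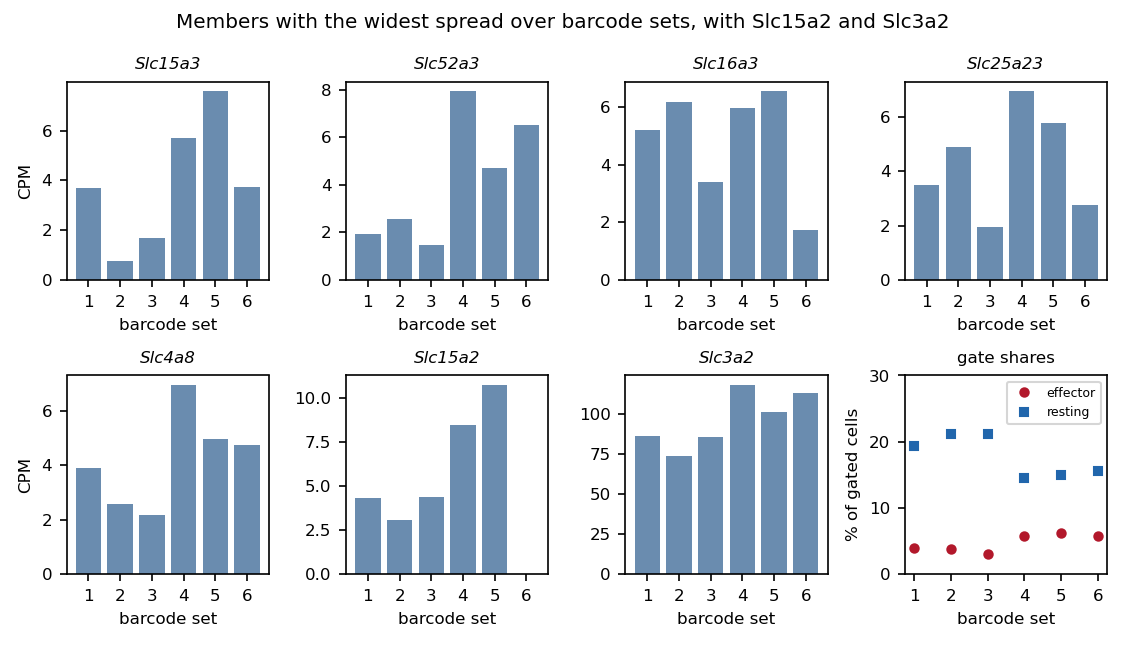
Bars give CPM in Treg cells of the 6 barcode sets for the 5 members with the largest ratio of highest to lowest set, and for Slc15a2 and Slc3a2; the last panel gives the percent of gated cells in the effector gate (circles) and resting gate (squares). Slc15a2 has no bar in set 6, where no UMI was counted.

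Effector-gated cells had at least 2 UMIs of effector markers (S100a4, Ccr2, Cxcr6, Lgals3, Klrg1, Il1rl1, Itgae, Il1r2) and 0 of resting markers after each cell was thinned to 1000 UMIs, and resting-gated cells the reverse (resting markers such as Ccr7, Lef1, Tcf7, Satb1, Igfbp4, Ly6c1 and S1pr1). There were 474 effector and 1807 resting cells, with 1238575 and 4688364 UMIs. In effector cells a small set of carriers was higher, led by the amino acid carrier Slc7a10, the mitochondrial ATP-Mg/phosphate carrier Slc25a24 and the bicarbonate transporter Slc4a7, while most members were close to the level of resting cells. A gene was called when its pooled ratio reached 1.5-fold either way and all 6 barcode sets agreed in sign, with 0.5 UMIs added to each sum. Of 137 members, 123 had the 30 UMIs needed, and 13 were called higher and 1 lower, beside 9.88% of all 8429 genes compared called higher and 1.64% lower. The members' share was thus near the background. Without added UMIs, 12 of the 14 members called had all 6 sets in the direction of the call, and Slc7a1 and Slc2a3 had 5.

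The median gene of the comparison had a log2 ratio of 0.23 and the median member 0.26, so values are also given relative to the median gene. On that scale 6 members were called higher and 4 lower (4.51% and 4.09% of all genes). A stricter rule, added after the data had been seen, also required a 95% interval that leaves out 0 and a call that holds when UMIs are added in proportion to the size of each group, which asks that all 6 sets agree without added UMIs too. It kept 10 members higher and 1 lower, beside 7.41% and 1.60% of all genes. With a gate of 3 UMIs 5 members were called in all, and with 100 UMIs required over both groups 4. The share of all genes called under these settings is not set beside these counts, so they are not read as a change particular to carriers. Markers of other cells were at similar low levels on both sides, with 43.6 CPM of B cell markers in effector and 34.3 in resting cells, 18.6 and 14.5 of myeloid markers and 69.4 and 58.2 of erythroid markers. The gates were drawn on the same cells as the members were measured in, but no member is a gate marker.

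Slc7a10 (chromosome 7, 35186385 to 35201114, plus strand), which encodes the light chain Asc-1 for small neutral amino acids, showed the largest ratio among called members. Over the 6 sets it had 10.1, 20.9 and 46.9 CPM (lowest, median, highest) in effector cells, against 1.14, 3.16 and 7.71 in resting cells, with no overlap. Pooled, that is 27 UMIs in effector and 17 in resting cells and a log2 ratio of 2.57 (95% interval 1.66 to 3.56), or 2.34 relative to the median gene. Of the 17 alternatives that gave it a value, all kept the call. The heavy chain Slc3a2 had 93.8, 117 and 131 CPM in effector and 60.2, 80.0 and 94.1 in resting cells. Its sets overlapped slightly, and its log2 ratio of 0.60 (0.31 to 0.88) stood just past the threshold, fell short of it in 10 of 20 alternatives, among them without set 1 or set 2, and was 0.37 relative to the median gene.

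The other light chains were not called. Slc7a5 had 10.5 CPM in effector and 15.1 in resting cells, and Slc7a6 6.46 and 8.75, both with intervals that include 0. Slc7a1, a carrier of arginine and lysine, was called higher with a log2 ratio of 1.01 (0.15 to 1.79), but not by the stricter rule: its sets ran from 3.96 to 40.3 CPM in effector and from 3.41 to 18.8 in resting cells. The glutamine carriers were not called, with a log2 ratio of 0.24 (-0.06 to 0.53) for Slc1a5, 0.34 (-0.17 to 0.80) for Slc38a1 and -0.25 (-0.71 to 0.17) for Slc38a2. In all, 3 of the 15 amino acid members compared were called higher and none lower, beside 9.88% and 1.64% of all genes. The stricter rule kept 2 of them, and 1 was called higher relative to the median gene.

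Among the 25 mitochondrial carriers compared, 2 were called higher and none lower, beside 9.88% and 1.64% of all genes. Slc25a24 (chromosome 3, 109123149 to 109168457, plus strand) had 14.3, 17.7 and 25.2 CPM in effector cells, against 3.14, 7.77 and 10.2 in resting cells, with no overlap and a log2 ratio of 1.53 (0.71 to 2.31). All 19 alternatives with a value kept its call. The pyrimidine nucleotide carrier Slc25a33 had 12.4 to 28.5 in effector and 7.27 to 11 in resting cells, with a log2 ratio of 1.003 (0.17 to 1.77). The abundant Slc25a5 was at 483 CPM in effector and 482 in resting cells, a log2 ratio of 0.00 (-0.13 to 0.13), which is below the median gene by more than counting error (-0.36 to -0.10 relative to it). Slc25a3 had a log2 ratio of 0.33 (0.18 to 0.48), higher in 6 of 6 sets but under the threshold.

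For inorganic ions, Slc4a7 (chromosome 14, 14702279 to 14799940, plus strand) had 40.3, 57.1 and 74.4 CPM in effector cells, against 19.7, 22.2 and 37.0 in resting cells, with no overlap. Its log2 ratio was 1.29 (0.84 to 1.72), or 1.05 relative to the median gene, and 19 of 20 alternatives kept the call. Slc26a2 was called at 0.65, with an interval of -0.03 to 1.27, and did not pass the stricter rule. For metal ions, the zinc importer Slc39a4 was called, with 7.21 to 30.2 CPM in effector and 3.08 to 15.7 in resting cells and a log2 ratio of 1.03 (0.22 to 1.78).

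Of the 9 sugar carriers, 2 were called higher and none lower, beside 9.88% and 1.64% of all genes. The intracellular hexose carrier Slc2a8 had 8.27 to 21.4 CPM in effector and 3.08 to 8.11 in resting cells and a log2 ratio of 1.03 (0.04 to 1.93), with 16 and 30 UMIs. The neuronal-type glucose transporter Slc2a3 had 10.1, 38.5 and 46.9 in effector and 11.7, 18.0 and 21.8 in resting cells. Its log2 ratio of 1.01 (0.44 to 1.56) was not kept by the stricter rule, and 1 effector set lay below all resting sets. Slc2a1 had 19.4 in effector and 16.0 in resting cells, with an interval that includes 0, and Slc50a1 120.3 and 127.

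The nucleotide sugar family had members on both sides. Slc35d2, a UDP-N-acetylglucosamine carrier, had 15.6 to 36.1 CPM in effector and 7.84 to 14.6 in resting cells and a log2 ratio of 1.18 (0.52 to 1.81). Slc35g1 was the 1 member called lower, with 2 UMIs in effector and 48 in resting cells, or 0 to 4.13 and 6.81 to 16.2 CPM over the sets. Its log2 ratio was -2.36 (-5.75 to -0.73). It lost the call in 3 of 17 alternatives: a gate of 1 UMI, gates on unthinned UMIs and thinning with another seed. Over all 17 its log2 ratio ran from -2.77 to -0.47. Slc35b3, at 28.3 in effector and 41.6 in resting cells, was called lower only relative to the median gene, as were Slc17a9 at 42.8 and 61.0 and Slc44a2 at 58.1 and 76.4.

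The folate carrier Slc19a1 had 15.6 to 25.2 CPM in effector and 6.17 to 14.5 in resting cells and a log2 ratio of 0.88 (0.11 to 1.58). Slc36a3os (chromosome 11, 55137044 to 55140193, plus strand), an antisense RNA gene and no carrier, had 14.3 to 51.5 in effector and 3.14 to 13.9 in resting cells and a log2 ratio of 1.68 (0.95 to 2.39). It lies within Slc36a3 in the annotation, and the strand setting of the counting is not given in the sources used here. No nucleoside or carboxylate carrier was called. Slc16a3 had 8.07 CPM in effector and 4.27 in resting cells, on 10 and 20 UMIs. Its log2 ratio was 0.96 (-0.34 to 2.08), higher in 5 of 6 sets. Slc16a6 had 12.9 and 6.19 CPM and a log2 ratio of 1.08 (0.08 to 1.99), higher in 4 of 6 sets. Slc29a1 had 50.9 CPM in effector and 31.1 in resting cells. Slc29a1 passed 1.5-fold, with a log2 ratio of 0.71 (0.26 to 1.14), but was higher in only 5 of 6 sets.

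**Figure D3:**
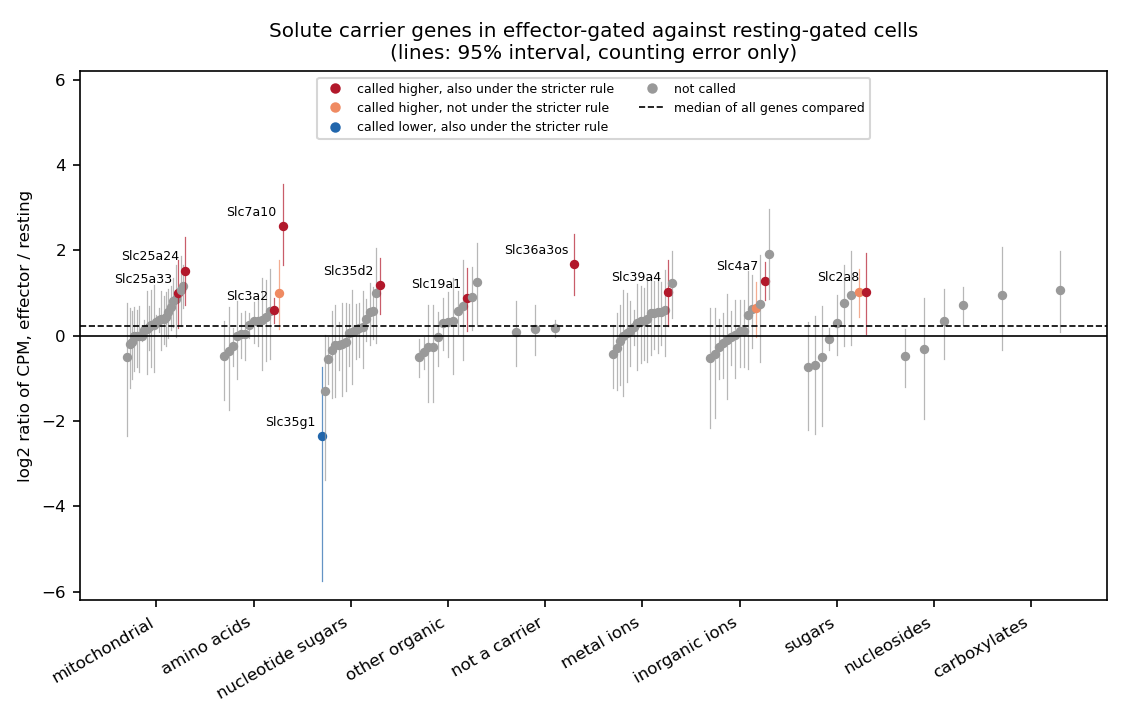
Log2 ratio of CPM in effector-gated over resting-gated cells for each of the 123 members compared, by substrate group; vertical lines are 95% intervals from counting error, the solid line is 0 and the dashed line the median of all genes at 0.23. Most points lie around the dashed line, with Slc7a10 at 2.57 and Slc35g1 at -2.36 at the ends of the called members.

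**Figure D4:**
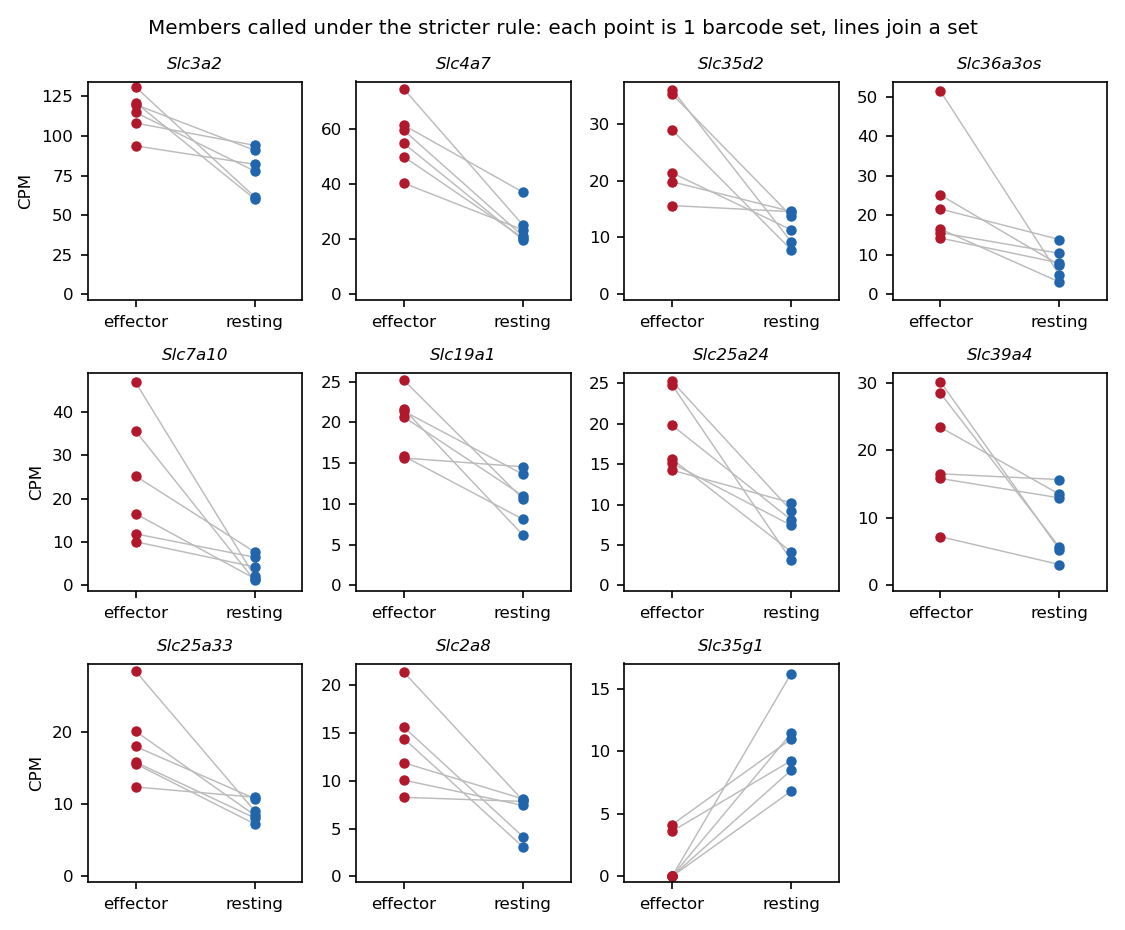
CPM in effector-gated (left) and resting-gated cells (right) for the 10 members called higher and the 1 called lower by the stricter rule; each point is 1 of the 6 barcode sets and lines join the values of a set. Every line falls to the right for the 10 higher members and rises for Slc35g1.

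The promoter of each member was read from RefSeq, which had an entry on GRCm38.p6 for 106 of 137 members, as the 250 bases before its annotated start. The letters TGANTCA, the core recognised by AP-1 and by Bach2 with small Maf proteins, stood in 7 of them (6.60%), beside 7.82% of the 27025 genes with a RefSeq promoter and 5.39% of the 10148 of these that are also in the count table. The letters TGATGNAA, the core of amino acid response elements bound by ATF4 and C/EBP proteins, stood in 2 (1.89%), Slc50a1 and Slc9a9, beside 3.91% and 2.52%. Both strands were searched, and TGANTCA reads the same on both. The 7 members with TGANTCA were Slc24a5, Slc25a11, Slc2a9, Slc38a10, Slc38a7, Slc7a1 and Slc9a9, so Slc7a1 was the only member called in effector cells that holds it in this window. The windows of Slc7a1 (chr5:148399905-148400154, minus strand) and of Slc25a11 (chr11:70647040-70647289, minus strand), called in Ccl5-positive cells below, are shown 5′ to 3′ because they join a call with a match of TGANTCA, with the match in capitals. Slc50a1, called lower in cycling cells below, joins a call with a match of TGATGNAA, and its window is not shown. A match is a stretch of letters, not a measured binding site.
Slc7a1: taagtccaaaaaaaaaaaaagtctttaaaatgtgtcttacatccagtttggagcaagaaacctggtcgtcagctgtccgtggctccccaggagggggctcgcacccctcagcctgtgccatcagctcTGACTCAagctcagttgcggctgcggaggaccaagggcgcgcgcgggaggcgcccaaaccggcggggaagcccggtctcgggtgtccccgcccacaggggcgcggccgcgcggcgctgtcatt
Slc25a11: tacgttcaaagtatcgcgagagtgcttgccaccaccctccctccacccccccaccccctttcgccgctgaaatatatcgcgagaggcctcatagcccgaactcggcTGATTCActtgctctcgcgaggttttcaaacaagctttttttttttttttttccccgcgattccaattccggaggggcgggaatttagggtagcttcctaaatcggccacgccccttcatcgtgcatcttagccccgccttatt

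TCR-stimulated cells had at least 2 UMIs of immediate early and activation genes (Nr4a1, Nr4a3, Egr1, Egr2, Egr3, Cd83, Nfkbid, Tnfrsf9) and were set against cells with 0. In these 661 cells, the lactate exporter Slc16a3, the magnesium transporter Slc41a1, the sulphate carrier Slc26a2, the folate carrier Slc19a1 and the nucleoside carrier Slc29a1 were higher than in the 7691 others. These are single members of their groups: 1 of 3 carboxylate, 1 of 19 metal ion, 1 of 16 inorganic ion and 1 of 5 nucleoside members were called higher, and 2 of 15 members for other organic molecules. Of 137 members, 10 were called higher and 2 lower, beside 5.24% and 1.30% of 9047 genes, and the median gene was at 0.11 on the log2 scale. The stricter rule kept 8 higher and 1 lower, beside 3.66% and 1.24%, and relative to the median gene 5 were called higher and 2 lower, beside 3.34% and 2.6%.

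Slc16a3 had the largest ratio among the members called, with 3.03, 13.7 and 28.2 CPM (lowest, median, highest set) in TCR-stimulated cells, against 1.38, 4 and 5.68 in cells without the markers, and a log2 ratio of 1.94 (1.16 to 2.63). Slc41a1 had 33.4, 35.6 and 56.7, against 7.96, 11.8 and 15.2, with no overlap and a log2 ratio of 1.77 (1.33 to 2.18), while in effector against resting cells its log2 ratio was -0.12. Slc26a2 had 18.8, 46.6 and 77.4, against 11.5, 18.7 and 23.5, with a log2 ratio of 1.33 (0.94 to 1.70). These 3 members were among the 5 called higher relative to the median gene. Slc7a10, which led the members called in effector cells, had 24.1 CPM in TCR-stimulated cells, against 8.64 in cells without the markers. Its log2 ratio here was 1.49, with an interval that leaves out 0, or 1.38 relative to the median gene. It passed 1.5-fold but was not called, because its 6 sets did not all agree in sign.

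Slc2a8 and Slc19a1 were again higher, with log2 ratios of 1.24 (0.49 to 1.88) and 1.06 (0.52 to 1.54). The heavy chain Slc3a2 had 143 CPM in TCR-stimulated cells, against 89.1 in cells without the markers, a log2 ratio of 0.69 (0.47 to 0.89). Slc29a1 had 67.0, against 42.0, a log2 ratio of 0.68 (0.36 to 0.97), and the haem carrier Slc48a1 41.6, against 26.8, a log2 ratio of 0.64 (0.24 to 1.01). These 3 fell under 1.5-fold relative to the median gene. The vesicular nucleotide carrier Slc17a9 was lower, with 15.5 to 31.6 in TCR-stimulated cells, against 37.6 to 57.8, without overlap and with a log2 ratio of -1.02 (-1.58 to -0.54). Slc35d2, higher in effector cells, was called lower here at -0.68, with an interval of -1.66 to 0.07 that includes 0, and Slc25a22 and Slc25a44 were called higher by the first rule only, each with 5 of 6 sets higher without added UMIs. With cells thinned to 500 UMIs, Slc35d2 turned to 0.08 and Slc25a44 to -0.04.

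Cycling cells (2 or more UMIs of 12 mitotic genes such as Mki67 and Top2a) numbered 56, with 3 to 19 per set and a median of 6317 UMIs, against 9751 cells without the markers with a median of 2114. The nucleobase carrier Slc43a3 and the ADP/ATP carrier Slc25a5 were higher in them. With so few cells, 16 members were called higher and 2 lower, beside 12.6% and 1.68% of 9051 genes, and the stricter rule kept 4 and 2, beside 5.09% and 1.57%. Without added UMIs, 6 of the 18 had all 6 sets in the direction of the call.

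Slc43a3, which carries purine nucleobases, had 20.1, 46.4 and 82.4 CPM (lowest, median, highest set) in cycling cells, against 2.02, 3.47 and 6.59 in cells without the markers, with no overlap. It rests on 18 and 92 UMIs, and its log2 ratio was 3.49 (2.64 to 4.20), the largest of any call of a member. Slc25a5 had 650.3, 711 and 904, against 445, 464 and 478, with a log2 ratio of 0.76 (0.59 to 0.92), while its log2 ratio in effector against resting cells was 0.00. Slc39a4, with a log2 ratio of 1.30 (0.16 to 2.14), and Slc35b2, with 0.98 (0.15 to 1.63), were also higher. Lower were Slc25a36, a pyrimidine nucleotide carrier, with 2 UMIs in cycling cells and 461 in the others (log2 ratio -1.72, -5.09 to -0.18), and Slc50a1, with 80.4 CPM against 128 (log2 ratio -0.65, -1.21 to -0.18). Slc25a10 (2.39, 1.15 to 3.30) and Slc2a8 (1.58, 0.26 to 2.51) were called higher by the first rule only, on 9 and 8 UMIs in cycling cells. CD8 and NK markers were at 51.2 CPM in cycling and 16.8 in the other cells. The part of depth and of these markers in the differences was not tested, and doublets were not removed from any gate.

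Interferon-stimulated cells (2 or more UMIs of Ifit1, Ifit2, Ifit3, Rsad2, Isg15, Oasl1, Usp18 or Cmpk2) numbered 327, against 8566 without these. Few members differed: 3 were called higher and 1 lower, beside 3.20% and 0.530% of 9050 genes, and the stricter rule kept 1 and 1, beside 1.43% and 0.398%. The mitochondrial glutamate carrier Slc25a22 had 10.7, 34.0 and 60.7 CPM in interferon-stimulated cells, against 6.22, 10.2 and 14.6, with a log2 ratio of 1.67 (0.98 to 2.25). The zinc transporter Slc30a5 had 1 UMI, against 300, a log2 ratio of -2.91 (-8.80 to -1.004). Slc5a3, a myo-inositol carrier, and Slc35b4 were called at 0.73 and 0.65 by the first rule, with intervals that include 0, 4 of 6 sets higher without added UMIs and a direction that turned under other gates.

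Ccl5-positive cells, with 2 or more UMIs of that chemokine, numbered 392, against 9133 without a UMI of it after thinning. In them 17 members were called higher and none lower, beside 4.62% and 0.762% of 9052 genes, with the median gene at 0.11. The stricter rule kept 5 higher and none lower, beside 1.68% and 0.718%. Thus 12 of the 17 did not pass the stricter rule, and when UMIs were added in proportion to group size 6 members were called higher and 1, Slc25a25, lower, beside 1.88% and 2.14% of genes. Without added UMIs, 6 of the 17 had all 6 sets in the direction of the call, and Slc15a3 had 2.

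The 5 kept were Slc25a11, with 98.6, 156 and 222 CPM in Ccl5-positive cells against 86.6, 98.1 and 107 (log2 ratio 0.75, 0.47 to 0.995), Slc3a2 with 144 against 94.7 (0.61, 0.32 to 0.88), Slc25a24 with 17.4 against 9.25 (0.96, 0.02 to 1.69), and the zinc transporters Slc39a6 with 22.4 against 11.6 (0.98, 0.17 to 1.64) and Slc39a9 with 14.9 against 7.21 (1.10, 0.07 to 1.89). Sets overlapped for all 5. Those with the largest ratios by the first rule were Slc15a3 at 1.61, Slc16a6 at 1.54 and Slc15a2 at 1.43. Of the Ccl5-positive cells, 52 were also effector-gated. Erythroid markers were at 90.7 CPM in Ccl5-positive and 64.3 in other cells, and CD8 and NK markers at 32.3 and 16.7, and their part in these differences was not tested.

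Cells with 2 or more UMIs of Il2ra, Lrrc32 or Gpr83 numbered 250, against 8482 with none. Here 4 members were called higher and none lower, beside 2.20% and 0.984% of 9048 genes: Slc33a1 at 0.93, Slc30a1 at 0.84, Slc39a3 at 0.69 and Slc8b1 at 0.62. Without added UMIs, Slc8b1 alone of these 4 had all 6 sets higher, but with a gate of 1 UMI it turned to -0.55. None passed the stricter rule, beside 0.431% and 0.928% of genes. A gate on Tmem176a, Tmem176b and Ccr6 held 19 cells and was not compared. A cell could fall in more than 1 of these gates, and the states share most of the cells they were set against.

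**Figure D5:**
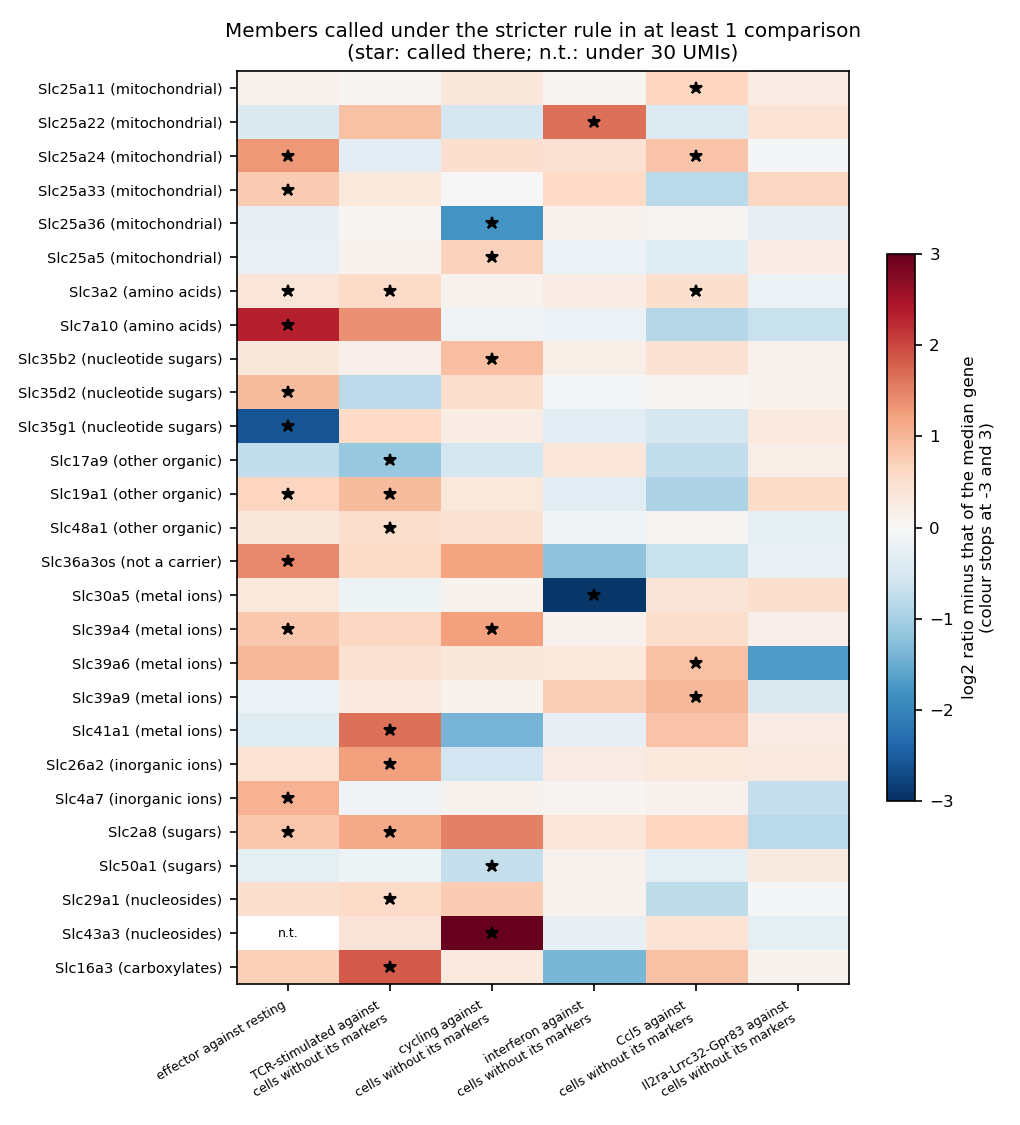
Log2 ratio minus that of the median gene for the 27 members called by the stricter rule in at least 1 of 6 comparisons, grouped by substrate; red is higher and blue lower in the state than in the cells it was set against, stars mark calls, and n.t. marks under 30 UMIs. Slc3a2 carries a star in the effector, TCR-stimulated and Ccl5 columns, and the Il2ra-Lrrc32-Gpr83 column has none.

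The cells outside the Treg gate were few, and their T cell markers stayed high (2706 CPM in the B cell gate, beside 2929 of B cell markers), so they are described as gates and not as pure types. In the 45 myeloid-gated cells, Slc48a1 had 103 CPM (95% interval 58.8 to 167), against 28.7 (26.6 to 30.9) in Treg cells, and the mitochondrial calcium exchanger Slc8b1 51.4 (22.2 to 101), against 7.40 (6.36 to 8.56). In the 224 B-gated cells, Slc3a2 had 137 (112 to 167), against 96.0 (92.2 to 99.98). Of the 141 UMIs of Slc25a37, the iron importer of mitochondria, 10 came from the 4 erythroid cells.

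Genes that work beside carriers were counted in the same effector against resting comparison. There 9.88% of all genes were called higher and 1.64% lower. Of 4 partner proteins, Emb, a chaperone of lactate carriers, was called higher, with 206 CPM in effector and 102 in resting cells (log2 ratio 1.02, 0.79 to 1.24). Its relative Bsg had 187 and 131, and the pyruvate carrier subunit Mpc1 103 and 74.4, neither called. Of 7 ATF4-driven amino acid genes compared, 1 was called higher, the serine synthesis gene Psat1 (1.09, 0.43 to 1.71), with Aldh18a1 at 0.30 and Ddit3 at -0.20. None of 12 genes of amino acid sensing upstream of mTORC1 was called, with log2 ratios of 0.46 for Rheb, 0.45 for Rptor and 0.39 for Lamtor5.

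Of 7 glucose genes, Hif1a was called higher (0.85, 0.54 to 1.16), while Arrdc4 stood at 0.45. Pdk1, whose product inhibits pyruvate dehydrogenase, was called lower, with 25.8 CPM in effector and 62.5 in resting cells (-1.25, -1.85 to -0.75). Of 6 metal handling genes, metallothionein Mt1 was called higher (3.01, 1.96 to 4.22), though not by the stricter rule, with Mtf1 at 0.72 and Fth1 at 0.25. Of 8 ion pump genes, 3 were called higher, 2 of them by the stricter rule, and 1 lower, beside 9.88% and 1.64% of all genes. Relative to the median gene 1 was called higher and 1 lower. Calcium pump Atp2b4 (1.33) passed the stricter rule and Atp2b1 (0.64), also a calcium pump, did not, the sodium pump subunit Atp1b1 was the 1 called lower (-2.47, -5.00 to -1.08), and Atp2a2 at 0.93 was not called, with 4 of 6 sets higher. Of 10 nucleoside genes, Pnp (0.80) and Dck (0.64) were called higher, Dck not by the stricter rule and neither relative to the median gene, and Tk1 at 1.37 and Ada at -1.65 were not called. In cycling cells 3 of these 10 were called higher, beside 12.6% of all genes. Among the 3 was Tk1 with 224 CPM, against 7.47 in cells without the markers.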

How the data were processed

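Single EGFP-positive Treg cells of 3 cKO and 3 WT samples were profiled with 10x Chromium 3′ chemistry (v2), per the labels' protocols. The submitters' processing notes name mm10, FastQC, cutadapt, HISAT2, Cell Ranger and Seurat, without versions or roles. The authors deposited raw UMI counts of 14098 genes in 10685 cells, which were used here. Their second deposited table, in natural log units, equals the log of scaled counts plus 1 in 10464 of these cells, with differences below 1e-09 from a recomputation, and gave no values, apart from its choice of cells as an alternative. No label links a column, among the 10685, to its sample, so the cells count as 1 sample in the sense of a test, and cKO and WT were not compared.

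Members, substrate groups, markers and gene lists were chosen with earlier results of these data known, and Slc36a3os and Slc4a1ap were moved to the genes that are not carriers once the members had been seen. Cells with at least 2 UMIs of B cell or myeloid markers, or at least 1% erythroid UMIs, were set apart. Treg cells were thinned to 1000 UMIs (seed 1) for the state gates, which left out 307 shallower cells and kept 10105. Unthinned UMIs were then summed per gate and set, and given as CPM. Log2 ratios had 0.5 UMIs added to both sums, with exact conditional binomial 95% intervals, and levels had exact Poisson intervals. Genes needed 100 UMIs over all cells and 30 over both groups. Adding 0.5 UMIs to unequal sums lifts the ratio of the smaller group for genes of few UMIs, which was seen after the first results and led to the stricter rule. Named are the 4 members of each group with most UMIs, members called in effector against resting cells, the 3 largest calls each way of other states, the 5 largest ratios between sets, and 3 genes of each list. A few genes under this rule are not reported here. On simulated counts of the effector comparison, 91 of 100 genes made 3-fold higher, 61 of 95 made 3-fold lower and 126 of 8199 unchanged genes were called. The simulated counts held counting error only, without the differences between barcode sets that the real counts show. Python 3.11.15, numpy 2.4.6, scipy 1.17.1, pandas 2.3.3 and matplotlib 3.10.9 were used.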

Additional observations from a re-analysis of the deposited data

Results flagged for a closer look

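For each of 63 named members the 6 barcode sets were checked for 1 set far from the others (a gap to its neighbour that takes up most of the whole range, by Dixon's 95% critical value), which chance gives in about 1 in 20 groups. The sets mix 2 genotypes that are not told apart here, so they are not replicates of 1 group. For 4 members a set was flagged. Slc28a2, a purine nucleoside carrier, had 32.7 CPM in set 5, with 23.3 to 25.5 in the others. In set 6, Slc35a4 had 47.3, with 30.4 to 35.4 in the others, and Slc35b2 had 28.0, with 19.5 to 22.5. Slc50a1 had 111 in set 1, with 127 to 133 in the others.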

How the results depend on the processing

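The number of members called was 14 for effector against resting, 12 for TCR-stimulated and 18 for cycling cells. It was 4 for interferon, 17 for Ccl5 and 4 for Il2ra-Lrrc32-Gpr83 cells. These numbers moved by over 1.5 times under these alternatives, and the cause was not tested. The share of all genes called under each alternative is not set beside the counts. A count that moved is therefore not read as a change particular to carriers. A gate of 1 UMI gave 6 for TCR-stimulated, 9 for cycling, 1 for Ccl5 and 1 for Il2ra-Lrrc32-Gpr83; a gate of 3 UMIs gave 5 for effector and 7 for interferon. Gating on unthinned UMIs gave 10 for cycling, 2 for interferon and 11 for Ccl5. Thinning to 500 UMIs gave 8 for effector, 9 for interferon, 10 for Ccl5 and 37 for Il2ra-Lrrc32-Gpr83, and another seed 11 for Ccl5. Totals without ribosomal protein and mitochondrial genes gave 7 for TCR-stimulated and 11 for cycling, and ratios relative to the median gene 7, 7 and 10 for TCR-stimulated, cycling and Ccl5. Requiring 100 UMIs over both groups gave 4 for effector. Removing no cells of other types gave 2 for Il2ra-Lrrc32-Gpr83, and leaving out the deepest 2% of cells and cells with a UMI of another type gave 21 for TCR-stimulated and 8 for Il2ra-Lrrc32-Gpr83. A 2-fold threshold gave 6, 9, 2, 7 and 0 for TCR-stimulated, cycling, interferon, Ccl5 and Il2ra-Lrrc32-Gpr83, and a lower fold threshold 7 for the last. Of the alternatives added after seeing the data, UMIs added in proportion gave 7 for Ccl5, and the stricter rule 6, 2, 5 and 0 for cycling, interferon, Ccl5 and Il2ra-Lrrc32-Gpr83. Leaving out 1 barcode set at a time, with 5 of 5 sets then required, gave 14 to 21 for effector, 14 to 20 for TCR-stimulated, 20 to 27 for cycling, 4 to 9 for interferon, 17 to 22 for Ccl5 and 5 to 7 for Il2ra-Lrrc32-Gpr83.

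No member called in effector against resting or in Ccl5-positive cells changed direction under the alternatives that gave it a value. In the other states 2 members each did, none of them called by the stricter rule. For TCR-stimulated cells, thinning to 500 UMIs turned Slc25a44 to -0.04 and Slc35d2 to 0.08. For cycling cells, Slc15a2 turned to -0.21 with gates on unthinned UMIs, -0.48 with another seed and -1.56 without set 5, and Slc35b4 to -0.31 with a gate of 1 UMI and -0.44 without set 4. For interferon-stimulated cells, Slc35b4 turned to -0.20 on thinning to 500 UMIs, and Slc5a3 to -0.05 with gates on unthinned UMIs and -0.0088 with another seed. For Il2ra-Lrrc32-Gpr83 cells, Slc39a3 turned to -0.41 on thinning to 500 UMIs, and Slc8b1 to -0.55 with a gate of 1 UMI, -0.83 with gates on unthinned UMIs and -0.54 with another seed. In effector against resting cells, Slc7a10 and Slc25a24 kept the call under each alternative that gave a value. Slc4a7 and Slc25a33 lost it under 1 each. Slc3a2 (0.34 to 0.69), Slc26a2 (0.35 to 0.90) and Slc7a1 (0.28 to 1.17) lost it under 10, 9 and 8. Slc2a3 (0.67 to 1.32), Slc19a1 (0.20 to 1.03) and Slc35d2 (0.51 to 1.53) lost it under 5 each. Slc36a3os (1.18 to 1.92), Slc39a4 (0.71 to 1.24), Slc2a8 (0.79 to 1.21) and Slc35g1 (-2.77 to -0.47) lost it under 3 each. Among those that lost the call with another seed were Slc19a1, Slc35d2, Slc36a3os and Slc35g1. Slc2a8 lost it without cells of the cycling gate. In all, 5 fits with under 50 gated cells were not run, 4 of them for cycling and 1 for Il2ra-Lrrc32-Gpr83. No paired analysis was possible because the cell columns carry no sample or replicate number of the labels, so cKO and WT could not be paired; each state was compared with its other cells within every barcode set, which is part of each call. Depth limits low members: 14 had under 30 UMIs in effector and resting cells together.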
